A study of Mus musculus with 20 samples.

Results

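The transcripts of wild-type mouse beta cells were ranked by abundance in 5 of the 20 libraries of the series, and all 26305 entries with a usable gene name took part in the ranking. A gene's place was set by its mean FPKM (fragments per kilobase, with depth scaled out) over the 5 wild-type (WT) libraries, so the ranks themselves are a description and carry no test. The cells came from islets of male mice aged 6 to 8 months, kept on standard chow, and were sorted by fluorescence. A tomato reporter at the ROSA26 locus marked them after recombination by Cre under the rat insulin promoter (RIP-Cre). The other libraries, 5 each, came from beta cells in which floxed alleles were crossed to RIP-Cre: Foxo1 in IKO, Hnf4a in HKO and both genes in DKO. RIP-Cre, the tomato label, sex, age and diet are given alike for all 4 groups. The sort gates on the activity of an insulin promoter, past or present, so other cells that ever switched it on would also be collected. Nothing in the labels says whether libraries came from separate animals, and the SDs below may therefore measure technical spread.

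WT libraries held 26.8 to 34.7 M (mega) reads, and 17029 to 17364 named genes were above 0 in each. The libraries were not evenly spaced. Replicates 1 and 2 lay close to each other, as did replicates 4 and 5. The median over genes of a chi-square on the reads was scaled to be 1 under sampling noise. It was 2.90 and 2.73 in these 2 pairs and 4.52 to 13.2 in the other 8 pairs. The close pairs thus differed by more than counting noise, which does not show that they came from separate animals. They were kept as separate libraries, and the values with each pair averaged are given in the closing section. Several results below are shared by replicates 4 and 5 or set replicate 3 apart, and these are named where they occur.

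Beta cells make, fold, process and store insulin. Preproinsulin enters the endoplasmic reticulum (ER), is folded there with its disulphide bonds, and is packed into dense-core granules in which the prohormone convertases Pcsk1 and Pcsk2 and carboxypeptidase E cut it to insulin and C-peptide. Amylin, the product of Iapp, is stored and released with it. Mice carry a pair of insulin genes, Ins2 on chromosome 7, whose structure matches that of other mammals, and Ins1 on chromosome 19, a retrotransposed copy. Glucose enters through Slc2a2, and its oxidation in mitochondria closes the ATP-sensitive potassium channel and triggers exocytosis.

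The promoters of 3 genes at the head of the ranking and of Gcg, the glucagon gene of alpha cells that was also among the first 30, are shown to set a beta cell hormone promoter beside one that belongs to another islet cell. Each is the 250 bases before the RefSeq start site (GRCm38.p6): Ins1 at chr19:52264047-52264296 on the plus strand, Iapp at chr6:142298175-142298424 (plus), Chga at chr12:102554691-102554940 (plus) and Gcg at chr2:62483654-62483903 (minus). Capitals mark CATCTG or its reverse complement CAGATG, the E-box of the insulin promoter that NeuroD1 binds, and TATAAA or TTTATA, a form of the TATA box.
Ins1: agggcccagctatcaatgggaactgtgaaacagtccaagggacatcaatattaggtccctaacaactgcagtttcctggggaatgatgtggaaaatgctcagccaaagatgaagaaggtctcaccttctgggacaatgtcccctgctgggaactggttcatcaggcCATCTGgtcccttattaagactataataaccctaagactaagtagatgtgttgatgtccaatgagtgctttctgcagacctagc
Iapp: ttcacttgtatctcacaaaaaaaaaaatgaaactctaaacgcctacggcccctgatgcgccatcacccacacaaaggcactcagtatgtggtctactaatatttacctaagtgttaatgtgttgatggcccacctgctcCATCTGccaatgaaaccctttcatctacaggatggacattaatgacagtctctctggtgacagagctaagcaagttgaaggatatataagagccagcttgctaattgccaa
Chga: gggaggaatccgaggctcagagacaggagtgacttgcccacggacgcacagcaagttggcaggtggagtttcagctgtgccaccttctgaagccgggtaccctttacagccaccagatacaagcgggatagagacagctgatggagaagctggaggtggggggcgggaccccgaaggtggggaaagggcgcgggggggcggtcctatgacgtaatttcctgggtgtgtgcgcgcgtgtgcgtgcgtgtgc
Gcg: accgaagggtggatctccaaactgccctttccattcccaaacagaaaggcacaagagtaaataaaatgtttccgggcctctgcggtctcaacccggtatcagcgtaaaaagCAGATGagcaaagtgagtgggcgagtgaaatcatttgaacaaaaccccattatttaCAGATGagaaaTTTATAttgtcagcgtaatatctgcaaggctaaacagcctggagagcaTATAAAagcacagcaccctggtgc
Ins1 and Iapp each held 1 CATCTG, 84 and 111 bases before the start. Gcg held 2, at 139 and 83 bases, besides 2 matches to TATAAA, and Chga held neither motif. On either strand, CATCTG lay in 14.5% of 27025 promoters of the same length, in 10 of 72 promoters found for the first 100 genes and in 3 of 21 found for the first 30. TATAAA lay in 13.0% of all promoters and 7 of the 72, and TAATTA, a homeodomain site, in 4.90% of all and 1 of the 72. These matches describe letters in a window and nothing about binding.

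Insulin and amylin transcripts dominated the libraries. Ins2 stood at 198983, 225465, 284954, 259986 and 247665 FPKM in replicates 1 to 5 (mean 243411 ± 32843, SD, n = 5). Ins1 stood at 45706, 49668, 60085, 51869 and 48157 FPKM (51097 ± 5503). Both were highest in replicate 3 and lowest in replicate 1. Iapp was steadier, at 38099, 38573, 41637, 39964 and 41090 FPKM (39873 ± 1536). The next gene, Chga, stood at 5374 ± 403 FPKM, so the first 3 genes lay well apart from all that followed, as the plot of the first 30 genes shows. Ins2 alone made up 36.3% of the summed FPKM of named genes, the first 3 genes 49.95%, the first 100 genes 61.7% and the first 1000 genes 78.1%. It took 4 genes to reach 50% of the sum, 715 to reach 75% and 3235 to reach 90%. At the other end, 19042 named genes were above 0 on average, 11420 reached 1 FPKM, 5883 reached 10, 554 reached 100 and 20 reached 1000, and 7263 had no read in any WT library.

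**Figure D1:**
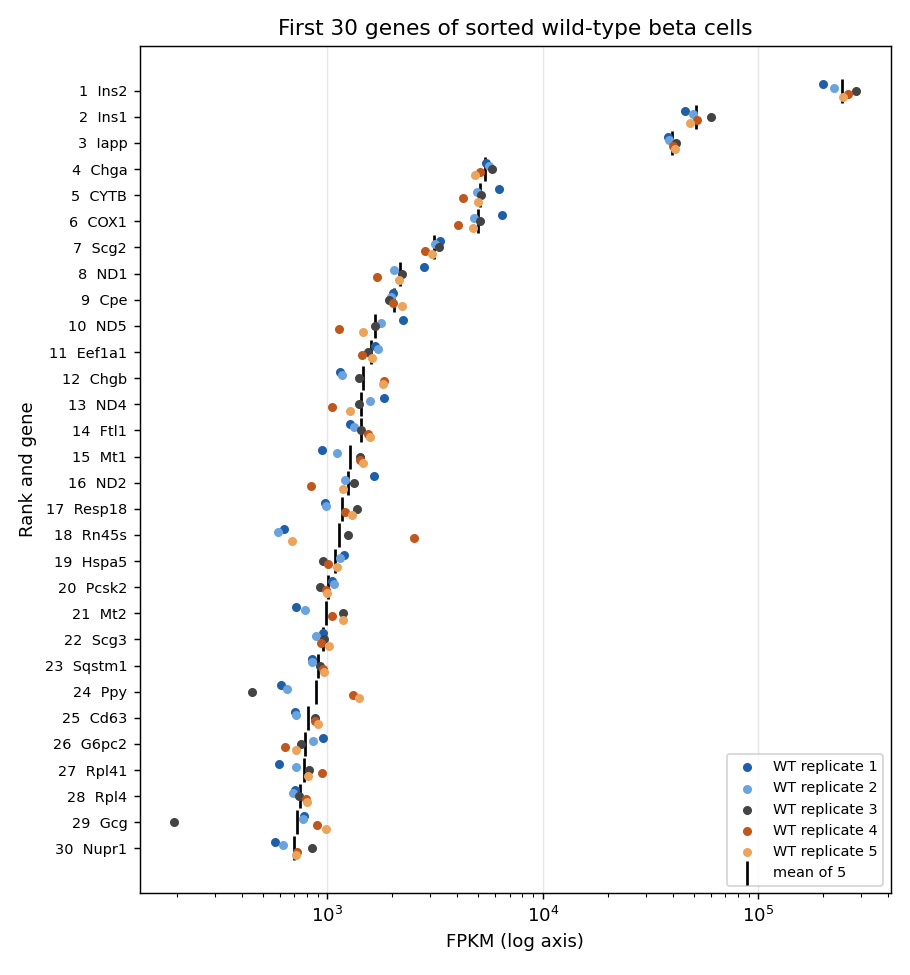
FPKM (log axis) of the 30 genes with the highest mean in the 5 WT libraries, with a point for each library and a bar at the mean. Ins2, Ins1 and Iapp sit at 38099 FPKM or more in every library, while the next gene, Chga, reaches 5825, and Gcg, Ppy and Rn45s show the widest spread.

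Ins2 exceeded Ins1 in every library. Their ratio was 4.35, 4.54, 4.74, 5.01 and 5.14 in replicates 1 to 5 on the FPKM scale (4.76 ± 0.33). The lengths behind the FPKM values matter here: those recovered from the table were 565 bases for Ins2 (chr7:142678656-142679726, GRCm38.p6) and 1036 for Ins1, although the whole RefSeq Ins1 locus (chr19:52264297-52265015) spans 719 bases. By reads, not divided by length, the ratio was 2.59 ± 0.18. The scales differ by a fixed factor of length, so the order of the libraries is the same on both by construction. Replicates 1 and 2 lay below replicate 3, and replicates 4 and 5 above it. IKO, HKO and DKO showed the same order of the library sets (4.25 to 5.40 in FPKM over the 3 groups). Ins1 and Ins2 are similar in their coding sequence, and how short reads were divided between them is not given, so the ratio is uncertain beyond its spread. Together the insulin genes held 39.8, 42.8, 48.4, 45.4 and 43.5% of the FPKM sum (44.0 ± 3.20) but 19.0 ± 2.37% of the reads, since their transcripts are short.

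Genes of the secretory granule were the largest class among the first 30 genes, with 7, beside 6 of the mitochondrial genome. Among the first 100, where ribosomal protein genes numbered 25, granule genes numbered 10. Their 28 listed members that were in the table held 2.84 ± 0.14% of the FPKM sum (2.72 to 3.05) and 4.42 ± 0.04% of reads. The granins, acidic proteins that drive granule formation, led the group: Chga at 5470, 5644, 5825, 5090 and 4842 FPKM, Scg2 at 3129 ± 203, Chgb at 1470 ± 333 and Scg3 at 954 ± 46.9. Chgb stood at 1144, 1165, 1408, 1829 and 1804 FPKM. In replicates 4 and 5 it was higher, and Chga lower, than in the other libraries, so that Chga exceeded Chgb 4.78- and 4.84-fold in replicates 1 and 2 but 2.78- and 2.68-fold in replicates 4 and 5. Of the processing enzymes, carboxypeptidase E (Cpe) stood at 2029 ± 106 FPKM and Pcsk2 at 1006 ± 60.9, while Pcsk1 stood at 231 ± 23.5. Pcsk2 therefore exceeded Pcsk1 by 4.39 ± 0.34-fold. Resp18, a granule protein of endocrine cells, stood at 1167 ± 180 FPKM, Ptprn, an autoantigen of type 1 diabetes in the granule membrane, at 627 ± 56.5, and Pam, which amidates peptides such as amylin, at 432 ± 43.9. The vesicle SNARE Vamp2 was among the steadiest genes of all, between 123 and 126 FPKM. The granule zinc transporter Slc30a8 was not, at 171, 164, 110, 83.5 and 93.0 FPKM.

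The machinery that makes and folds secreted proteins followed. ER import and folding genes, 40 of which were in the table, held 1.29 ± 0.12% of the FPKM sum, with replicate 3 lowest at 1.11%. The ER chaperone Hspa5 (BiP) stood at 1080 ± 101 FPKM, protein disulphide isomerase P4hb at 581 ± 42.8, calreticulin (Calr) at 580 ± 64.3, and Hsp90b1 at 536 ± 48.9. All 4 were lowest in replicate 3. Xbp1, the transcription factor of the unfolded protein response, stood at 220 ± 14.5 FPKM, and Ero1lb, the oxidase that recharges disulphide isomerase in the beta cell, at 179 ± 35.3. Ribosomal protein genes were the largest class by number, with 25 among the first 100, and held 3.47 ± 0.24% of the FPKM sum but 1.74 ± 0.18% of reads. Their shares were 3.19, 3.38, 3.33, 3.74 and 3.69% in replicates 1 to 5, and 82 of the 84 with at least 20 FPKM were higher in the mean of replicates 4 and 5 than in that of replicates 1 and 2, against 1884 of 3444 genes at that level. Rpl41 (777 ± 128 FPKM) and Rpl4 (747 ± 51.9) led the class. These genes have many processed pseudogenes, and values of single members are uncertain. Translation factors held 0.750 ± 0.053%, led by the elongation factor Eef1a1 at 1591 ± 105 FPKM.

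The ferritin and metallothionein genes, which bind iron and zinc, held 0.640 ± 0.052% of the sum with only 5 members. Ferritin light chain Ftl1 stood at 1429 ± 132 FPKM and heavy chain Fth1 at 590 ± 33.0. Mt1 stood at 944, 1112, 1411, 1415 and 1456 FPKM and Mt2 at 716, 790, 1178, 1055 and 1176, lowest in replicates 1 and 2 in both cases. Brain-type Mt3 stood at 11.1 ± 2.17 FPKM.

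Of the genes encoded by the mitochondrial genome, some ranked directly behind the hormones and Chga, and others had almost no reads. CYTB (cytochrome b) stood at 6282, 4965, 5140, 4265 and 4994 FPKM and COX1, the catalytic subunit of cytochrome oxidase, at 6444, 4805, 5078, 4021 and 4758. Both were highest in replicate 1 and lowest in replicate 4, and the class ran from 1.94% (replicate 4) to 3.52% (replicate 1) of the FPKM sum (2.56 ± 0.59). The complex I genes ND1 (2182 ± 395), ND5 (1654 ± 405), ND4 (1429 ± 299) and ND2 (1240 ± 292) were also among the first 30. By contrast COX2, COX3, ATP6 and ND4L had 3, 4, 2 and 1 reads in the 5 WT libraries together, and ATP8 and ND3 had none. Where no read was found, 3 reads in all would be 0.0992 FPKM for ATP8 and 0.0582 for ND3, for counting error only. None of these 6 genes exceeded 0.397 FPKM in any of the 20 libraries. In RefSeq they are neighbours that fill the stretch from base 7013 to base 10173 of the mitochondrial chromosome, between COX1 and ND4, and all 15 recovered gene lengths equal those of RefSeq. The respiratory complexes need the products of all of these genes, which are transcribed as parts of 1 precursor, so the class share is the share of the genes that received reads. The cause of the gap was not tested. The ribosomal RNAs Rnr2 and Rnr1 stood at 170 ± 47.6 and 126 ± 22.7 FPKM in these poly-A libraries, and ND6, the only protein gene on the other strand, at 11.7 ± 7.58 with its highest value, 24.6, in replicate 4.

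**Figure D2:**
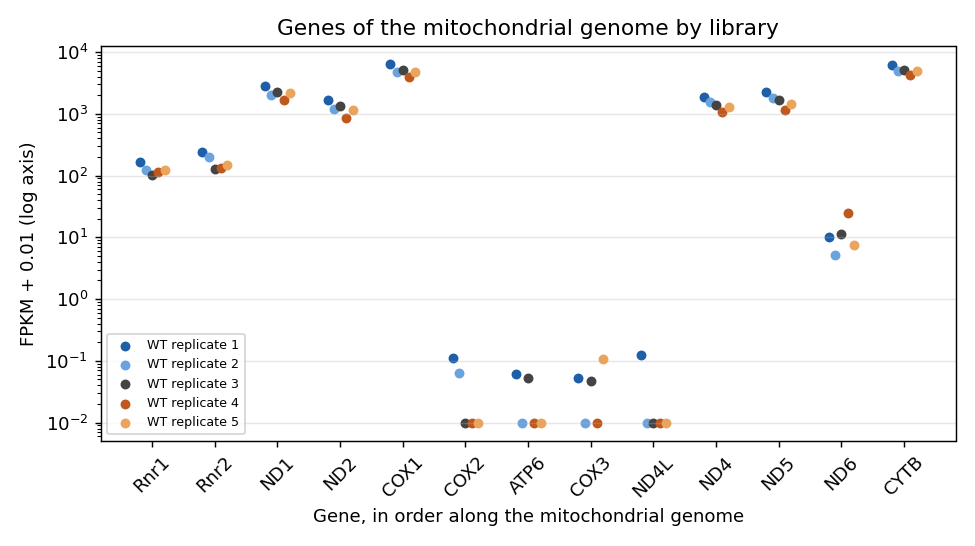
FPKM plus 0.01 (log axis) of 13 genes of the mitochondrial genome in their order along it, with a point for each WT library; ATP8 and ND3, at 0 in all 5, are not drawn. COX2, ATP6, COX3 and ND4L stay below 0.12 FPKM, between COX1 and ND4 at over 1000.

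The nuclear genes of the respiratory chain and ATP synthase had a steadier sum, at 1.45 ± 0.03% of the FPKM sum (1.41 to 1.5) over 83 genes. The 74 with at least 20 FPKM had a median SD of log2(FPKM + 0.5) of 0.118, against 0.113 for all 3444 genes at that level. Of the 74, 66 were higher in the mean of replicates 4 and 5 than in that of replicates 1 and 2, against 1884 of the 3444. The beta subunit of ATP synthase, Atp5b, stood at 436, 445, 444, 432 and 442 FPKM and was among the 10 genes of smallest spread. Atp5e of the same class ran from 256 FPKM in replicate 1 to 386 in replicate 3. The 25 housekeeping reference genes held 0.517 ± 0.021%, with replicate 3 lowest at 0.479%. Hsp90ab1 (600 ± 30.9 FPKM), aldolase A (Aldoa, 563 ± 21.6) and Gapdh (343 ± 15.6) led them and Actb stood at 146 ± 10.5. Of the 23 that reached 20 FPKM, 12 had an SD of log2(FPKM + 0.5) below 0.1. B2m, the light chain of MHC class I, had one of 0.95 and stood at 107, 101, 303, 353 and 387 FPKM. Transferrin receptor (Tfrc) ran the other way, at 47.1, 42.1, 23.3, 25.6 and 32.8 FPKM. Immediate early genes, which tissue dissociation can induce, held 0.0860 ± 0.0057%, led by Junb at 114 ± 18.9 FPKM. Fos stood at 73.3, 68.5, 113, 64.4 and 62.4 FPKM, with replicate 3 highest.

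**Figure D3:**
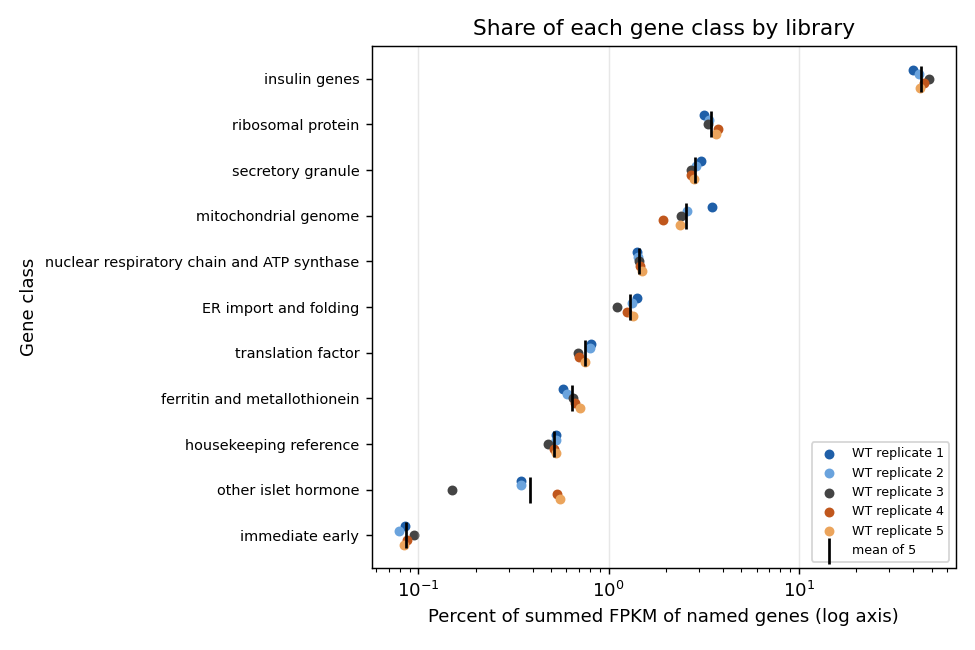
Percent of the summed FPKM of named genes (log axis) held by each gene class, with a point for each WT library and a bar at the mean. The insulin genes run from 39.8 to 48.4%, while the other islet hormones, led by Ppy and Gcg, are lowest in replicate 3 at 0.150%.

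Outside these classes stood 5 of the first 30 genes and 30 of the first 100. G6pc2, the islet glucose-6-phosphatase, was at 951, 857, 755, 634 and 716 FPKM. The autophagy receptor Sqstm1 (908 ± 54.2), the tetraspanin Cd63 (814 ± 98.0) and the stress-induced regulator Nupr1 (696 ± 106) were also there. Rn45s, the ribosomal RNA precursor, stood at 632, 591, 1244, 2513 and 682 FPKM, with replicate 4 far above the rest. By RefSeq gene type, protein-coding genes held 98.9% of the FPKM sum and long noncoding RNAs 0.472%.

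The cells carried the transcripts that define a beta cell. All 10 beta cell markers listed were above 10 FPKM in the mean. Urocortin 3 (Ucn3), a marker of mature beta cells, stood at 185, 195, 166, 134 and 140 FPKM. Among the 22 beta cell transcription factors, 19 reached 1 FPKM and 15 reached 10. Mafa, which activates insulin transcription in mature cells, stood at 135 ± 29.2 FPKM, Nkx6-1 at 107 ± 17.8, Pax6 at 93.3 ± 7.57, Insm1 at 88.4 ± 10.7, Pdx1 at 79.9 ± 8.17 and Neurod1 at 57.6 ± 9.05. Replicates 3 to 5 all lay below both replicates 1 and 2 for 17 of the 21 factors above 0 in WT. The same held for 32.7% of the 15515 named genes above 0 in all 5 libraries. Pax4, a factor of beta cell development, had no read in any WT library, where 3 reads in all would be 0.0149 FPKM. Neurog3, the endocrine progenitor factor, stood at 0.717 ± 0.289 FPKM (160 reads in all). The targeted factors were low in rank in WT, with Foxo1 at 6.64 ± 1.48 FPKM and Hnf4a at 5.56 ± 0.86.

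The glucose sensing and channel genes spanned a wide range of levels. After G6pc2, the incretin receptor Glp1r stood at 160, 158, 65.0, 84.2 and 73.5 FPKM. The pore of the potassium channel, Kcnj11, was steady at 57.7 ± 1.17 FPKM. The glucose transporter Slc2a2 was not. It stood at 64.0 and 62.6 FPKM in replicates 1 and 2 and at 26.2, 23.6 and 24.4 in replicates 3 to 5. These sets did not overlap, and replicates 3 to 5 likewise lay below both others for 29.1% of the 3444 genes of at least 20 FPKM. Slc2a1, the broadly expressed transporter, stayed between 17.4 and 19.6 FPKM, so the ratio of Slc2a2 to Slc2a1 ran from 3.67 down to 1.25. The genes named as disallowed in beta cells, whose products would let insulin escape glucose control, were low. Of 20, 5 reached 1 FPKM and their summed level was 14.7 to 15.6 FPKM. Lactate dehydrogenase A (Ldha) led at 4.57 ± 0.88 FPKM, the lactate transporter Slc16a1 stood at 0.0619 (39 reads in all), Hk2 at 0.0659 (53 reads) and Rest, a repressor of neuronal genes, at 0.0569 (36 reads).

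Hormones of the other islet cells were present at a small fraction of Ins2. In bulk RNA, fewer cells of a type and less RNA per cell cannot be told apart, and neither can stray cells and low transcription within beta cells. Ppy (pancreatic polypeptide) stood at 611, 650, 448, 1318 and 1397 FPKM, Gcg (glucagon) at 779, 772, 194, 898 and 986, Sst (somatostatin) at 328, 355, 103, 599 and 610 and Pyy (peptide YY) at 412, 442, 316, 842 and 791. All 4 were lowest in replicate 3 and highest in replicates 4 and 5. Against Ins2 in the same library they came to 0.365 ± 0.167% for Ppy, 0.309 ± 0.137% for Gcg, 0.231 ± 0.090% for Pyy and 0.167 ± 0.083% for Sst. Ghrl, the hormone of epsilon cells, stood at 0.590 ± 0.356 FPKM on 46 reads.

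Transcription factors that define these cells were far lower than their hormones. Hhex, a factor of delta cells, had 27, 27, 7, 30 and 38 reads in the 5 libraries (0.511 ± 0.249 FPKM), fewest in replicate 3, where Sst was also lowest. Irx1 and Pou3f4 of alpha cells stood at 0.377 ± 0.162 and 0.0571 ± 0.0363 FPKM. The summed alpha list ran from 290 FPKM in replicate 3 to 1076 in replicate 5, and Gcg made up 88.7% of it. The next member, Gc, a vitamin D-binding protein, did not follow Gcg and was highest in replicate 3, at 79.6 FPKM. The delta list ran from 111 to 629 FPKM and the PP list from 765 to 2188.

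Acinar transcripts differed 4.52-fold between the lowest and the highest library. The acinar list summed to 262, 283, 318, 72.3 and 70.3 FPKM in replicates 1 to 5, low in replicates 4 and 5, and 22 of its 24 members above 0 were lower in both of these than in each of the others. Of the same 15515 genes, 11.04% were. Chymotrypsinogen B1 (Ctrb1) led, at 58.8, 67.7, 84.8, 10.99 and 9.14 FPKM, and the elastases Cela2a and Cela1 stood at 19.4 ± 13.5 and 14.6 ± 9.71. The exceptions were Rbpjl, an acinar factor with 1 read in WT, and Bhlha15, a transcription factor of secretory cells, which was steady at 25.9 ± 1.49 FPKM. The acinar factor Ptf1a had 0 reads in WT. For Ptf1a, 3 reads would be 0.0134 FPKM. The acinar sum was 51.7 to 280 FPKM in IKO, 481 to 1774 in HKO and 215 to 1701 in DKO, and no test was made on these sums. The ductal list summed to 966 ± 217 FPKM, nearly all of it Spp1 (osteopontin; 342, 357, 926, 539 and 600 FPKM) and keratin Krt7 (397 ± 29.1). Its other defining members were low: Krt19 stood at 1.70 ± 0.66 FPKM, Sox9 had 11 reads and Cftr 3 reads in all.

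Other lineages left smaller traces. Endothelial markers summed to 7.74, 7.58, 7.15, 16.1 and 18.1 FPKM, and 12 of 13 were higher in replicates 4 and 5 than in each of the other 3 libraries, as were 20.5% of those 15515 genes. Their defining members Pecam1 and Cdh5 had 405 and 314 reads in all (0.851 ± 0.627 and 0.552 ± 0.480 FPKM). The immune list summed to 35.8 to 50.9 FPKM, led by C1qa (15.9 ± 1.23) and Cd68 (11.2 ± 1.39). The pan-leukocyte marker Ptprc stood at 0.104 ± 0.056 FPKM, C1qb and C1qc, partners of C1qa in 1 protein complex, at 0.297 ± 0.166 and 0.258 ± 0.116, and macrophage marker Adgre1 had 3 reads. Stellate cell and fibroblast markers summed to 0.788 to 2.05 FPKM, Schwann cell markers to 2.74 to 3.57 (with S100b and Foxd3 at 0 reads) and red blood cell globins to 0.389 to 0.997. The part of other cells in any of the values above was not tested.

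**Figure D4:**
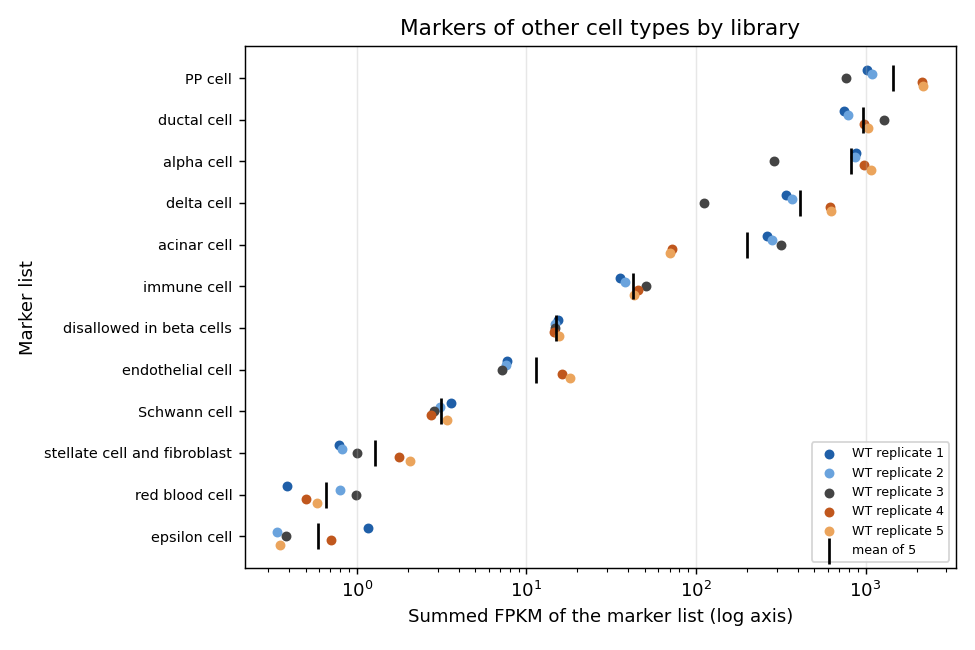
Summed FPKM (log axis) of the marker list of each other cell type, with a point for each WT library and a bar at the mean. Acinar markers are low and endothelial markers high in replicates 4 and 5, while alpha, delta and PP markers are lowest in replicate 3.

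Most abundant genes varied little. Over the 3444 genes that averaged 20 FPKM or more the median SD of log2(FPKM + 0.5) among the 5 libraries was 0.11, with 1439 genes (41.8%) below 0.1 and 31 (0.900%) above 0.5. The largest SDs belonged to Ctrb1 (1.51), Irf7 (1.304), Bst2 (1.11), Malat1 (1.10), Sst (1.04), Hamp (1.02), Rn18s (1.0), Rn7sk (0.98), Gcg (0.97) and Oasl2 (0.95). Irf7, Bst2 and Oasl2 are interferon-induced genes. Irf7, a transcription factor that amplifies interferon responses, stood at 15.9, 17.3, 68.2, 98.4 and 97.0 FPKM. Bst2, which tethers viruses to the cell surface, stood at 14.7, 14.2, 41.8, 64.8 and 70.6 FPKM. Both were low in replicates 1 and 2, between in replicate 3 and high in replicates 4 and 5, the order of B2m. Hamp, the iron hormone hepcidin, followed it at 8.04, 9.89, 18.5, 37.6 and 38.0 FPKM. Of the 31 variable genes, 21 were higher in replicates 4 and 5 than in replicates 1 and 2, with no overlap, and 7 were lower, beside 41.4 and 31.7% of the 3444 genes. The noncoding RNAs Malat1, Rn7sk and Rn18s instead stood out in replicate 4 alone: Malat1 was at 63.8, 52.3, 82.8, 317 and 50.02 FPKM and Rn18s at 187, 165, 402, 862 and 203. Rn18s lies within Rn45s in sequence, so reads of the pair may have been shared.

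The 10 steadiest genes, among them Gstm2, Vamp2, Samm50, Bag5, Snap47, Arpin, Dcaf11, Atp5b and Fam207a, had log2 SDs of 0.012 to 0.019. Gstm2, a glutathione transferase, stood at 27.6, 27.5, 28.1, 27.5 and 27.7 FPKM on 859 reads per library. Counting noise alone would give its log2 value an SD of 0.049, and 8 of the 10 lay below the SD that their own read numbers imply. They were picked for small spread, so their order is not resolved. Atp5b, a subunit of the mitochondrial ATP synthase, had more reads and an SD above its counting limit of 0.0092. The spread was also read in groups that had no part in choosing the genes. Of the 50 most variable genes in WT, 44, 49 and 48 had an SD above the median of the same 3444 genes in IKO, HKO and DKO. Of the 50 steadiest, 41, 46 and 44 had an SD below it. The close pairs of replicates 1 and 2 and of replicates 4 and 5 recur in all 4 groups, so these counts do not come from independent spreads. Replicate 3 lay outside both pairs in each group, but its deviations from the group mean correlated little between groups (median 0.0131).

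**Figure D5:**
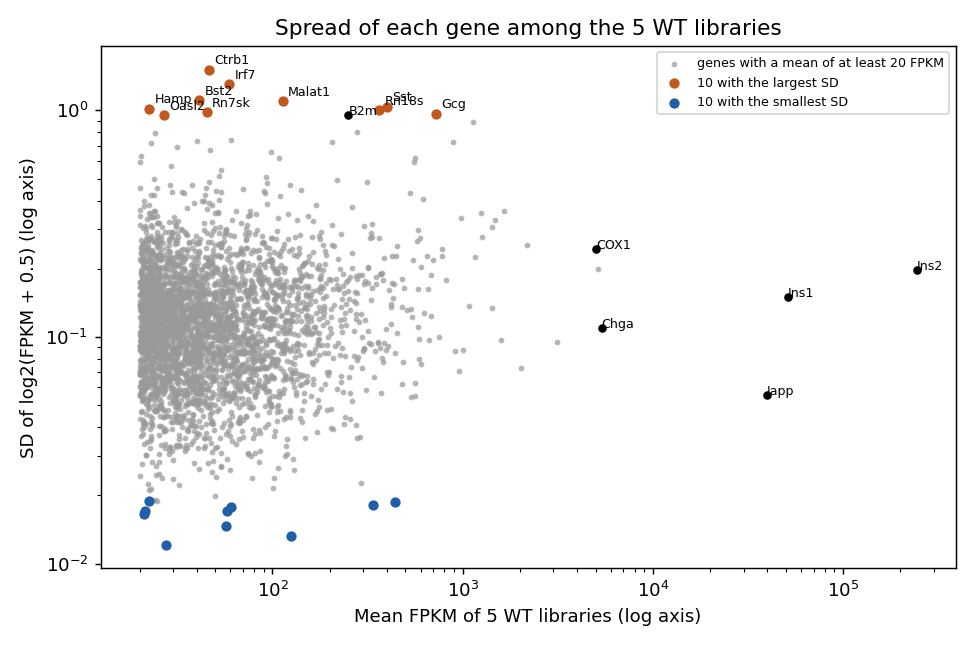
SD of log2(FPKM + 0.5) over the 5 WT libraries against the mean FPKM (both axes log) of 3444 genes, with the 10 of largest SD in orange, the 10 of smallest SD in blue and 6 abundant genes in black. Iapp varies less than Ins2, and B2m lies among the most variable genes.

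The ranking was nearly the same without Foxo1, Hnf4a or both. The first 30 WT genes shared 27 with the first 30 of IKO, 28 with HKO and 29 with DKO, and the first 100 shared 98, 95 and 95. Rn45s, Ppy and Gcg left the first 30 in IKO, Rn45s and Nupr1 in HKO, and Nupr1 in DKO. In limma on log2(FPKM + 0.5) over 12455 genes, 0 of the first 100 passed a Benjamini-Hochberg adjusted p of 0.05 in IKO against WT, where 0.0241% of all genes passed. The same count was 0 in HKO, where 0.787% of all genes passed, and 0 in DKO, where 1.2% passed. limma's voom on the recovered reads also gave 0 in each. The count in DKO depended on the model. With the replicate number as a block in limma, 4 of the 100 passed there (Spp1 higher, and Scg5, Rpl32 and Krt7 lower), although the number does not pair every library. With each close pair averaged into 1 sample the limma counts over all genes fell from 3, 98 and 150 to 0, 5 and 17. At an unadjusted p under 0.05, limma gave 2, 10 and 10 of the 100, beside 4.30, 7.07 and 8.01% of all genes. The 3 comparisons share the WT libraries. The median log2 change of the 100 genes was -0.047 in IKO, -0.0028 in HKO and -0.067 in DKO, beside 0.014, 0.00038 and 0.017 over all genes.

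The precision differed between genes. For Ins2 in IKO the log2 change was -0.02 with a 95% interval of -0.75 to 0.72. For Chga, a steadier gene, it was -0.04 (-0.27 to 0.18). Counts of 0 above therefore do not show that the levels were equal. The smallest adjusted p among the 100 was 0.0744, for Atf5, a transcription factor of the stress response, in DKO. It averaged 344 ± 20.6 FPKM in WT and 291 ± 19.96 in DKO (log2 change -0.24, SE 0.06), and it passed without DKO replicate 3 (adjusted p = 0.0391 in limma). Krt7 followed in DKO, at 397 ± 29.1 FPKM in WT and 330 ± 30.2 (log2 change -0.27, SE 0.07, adjusted p = 0.0838 in limma), and passed when WT replicate 3 (adjusted p = 0.0369) or DKO replicate 3 (0.0423) was left out. It also passed with the replicate number as a block (adjusted p = 0.0236 in limma).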

How the data were processed

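The authors deposited 1 table of FPKM values for 20 libraries, with 0 columns of other samples. Poly-A libraries were directional and sequenced as short paired reads, per the labels' protocols. Per the submitters' processing notes, DESeq2 1.14.1, Subread 1.5.2, featureCounts and STAR 2.5.2b were used with mm10, in roles the notes do not state. Not given in the sources used here are the annotation, read filters and whether counting used strand, so overlapping, antisense and near-identical genes are uncertain. Of 27179 entries, 847 named NA and 27 carrying a date were left out. The NA entries took 0.119 to 0.200% of WT reads and 1.15 to 2.40% of WT FPKM.

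Groups and replicate numbers came from sample titles. Whole reads and gene lengths were recovered from the FPKM steps for 100% of the 21006 entries above 0 (within 0.02 reads and 0.05 bases), and served for depth, shares of reads and voom. Shares are percents of the FPKM sum of named genes, so they are per length. Class and marker lists hold each list's whole membership. Variability is the SD of log2(FPKM + 0.5) over 5 libraries at a mean of 20 FPKM or more. Changes were tested with limma 3.58.1 (R 4.3.3, eBayes with trend) in all 20 libraries, at a mean of at least 0.5 FPKM. Fold changes on this scale understate changes of low genes. Scripts ran in Python 3.11.15 with pandas 2.3.3 and were tested on simulated data. Named are the first 30 genes, up to 8 members of each list with defining members near 0, the 10 most and least variable genes, and genes of the first 100 that pass. A few genes under this rule are not reported here. Tfrc, Atf5, some lower list members and the genes near the threshold were chosen after their values were seen. Members and lists were chosen with earlier results of these data known. Alternatives were other pseudocounts, filters, scalings, averaged or correlated close pairs, the replicate block, each library left out and, added after seeing the data, voom. Sequences are from RefSeq, GRCm38.p6. Intervals and limits cover counting error or the spread among these libraries only, and limma's intervals also draw on the spread of other genes.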

Additional observations from a re-analysis of the deposited data

Results flagged for a closer look

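Of 208 values tested over the 5 WT libraries, 12 had 1 library far from the other 4 by Dixon's criterion for a single outlying value. Chance alone gives about 1 in 20, and the count of 12 is near that. Some of the values overlap, as Gcg is part of the alpha sum, and the criterion takes no account of the close pairs. Replicate 3 was low in the share of housekeeping genes (0.479% against 0.517 to 0.531%), in the summed alpha markers (290.1 FPKM against 864 to 1076) and in Gcg itself (194 FPKM against 772 to 986). It was high in Fos (113 FPKM against 62.4 to 73.3) and in the MHC class II gene H2-Ab1 (2.17 against 0.773 to 0.931). Replicate 4 was high in Malat1 (317 FPKM against 50.02 to 82.8), Rn7sk (118 against 22.3 to 34.5), C1qa (18.04 against 14.99 to 15.55) and Acta2 (0.0570 against 0.0162 to 0.0210). Replicate 5 was high in Cpe (2210.0 FPKM against 1937 to 2016) and Samm50 (57.9 against 56.4 to 56.8). Sox10 was at 0.0132 FPKM in replicate 2 on 1 read and at 0 in the others.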

How the results depend on the processing

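Ranks moved most when values were not divided by gene length, and shares moved both then and when the insulin genes were left out. Ranked by reads, 19 of the first 30 and 53 of the first 100 genes were shared, while the median over libraries, rescaling to equal sums, averaged close pairs and each library left out kept 28 to 30 and 96 to 100. As percents of reads, the classes held 21.8 (beta cell hormones), 19.0 (insulin genes), 0.174 (other islet hormones), 4.42 (granule), 1.92 (ER), 0.989 (translation factors), 0.606 (housekeeping), 0.314 (ferritin and metallothionein), 0.132 (immediate early), 1.74 (ribosomal proteins) and 0.815 (nuclear respiratory chain). With Ins1 and Ins2 left out of the sum, the shares were 10.7 (beta cell hormones), 0.689, 5.06, 2.30, 1.34, 0.923, 1.15, 0.154, 6.21 and 2.60% in that order without the insulin genes, and 4.55% for the mitochondrial genome. Without the mitochondrial genome the nuclear respiratory chain held 1.49%. Rescaled so that named genes summed to 1e+06, marker sums were 1238 (alpha), 2160 (PP), 1437 (ductal), 16.9 (endothelial), 1.91 (stellate cell and fibroblast), 63.8 (immune), 4.72 (Schwann), 0.975 (red blood), 501710 (beta), 2509.7 (glucose sensing), 1295 (beta cell transcription factors) and 22.6 (disallowed), and 140 of 181 single genes moved by more than their SD, all by this common scaling. The median, averaged close pairs and each library left out moved none of the 181 by that much.

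At a mean of at least 5 FPKM, 90 genes had an SD above 0.5 and 2848 below 0.1, and with no filter 417 and 7431. Without a filter, the pseudocount of 0.5 keeps genes near 0 at a small SD, so the 7431 include genes with almost no reads. Of the 10 most variable genes, 2 and 1 were shared with the lists at 5 FPKM and with no filter, and 6 to 10 with each library left out (6 without replicate 4). Of the 10 steadiest, 5 and 0 were shared, 0 with libraries scaled to equal medians, 1 with close pairs averaged and 2 to 4 with each library left out. The names of the steadiest genes are thus not stable.

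Of the first 100 genes, 1 passed in HKO after quantile normalization (Resp18, log2 change -0.33). In DKO, 0 to 2 passed with each library left out (Krt7 without WT replicate 3, Krt7 and Atf5 without DKO replicate 3), and 0 in IKO and HKO. With the replicate number as a block, 0, 0 and 4 passed in IKO, HKO and DKO (Spp1 higher; Scg5, Rpl32 and Krt7 lower) and 1, 193 and 263 of all genes. Deviations of same-numbered libraries correlated by a median of 0.331, 0.292, 0.0131, 0.402 and 0.334 for replicates 1 to 5, with a lowest value of -0.386 for replicate 3, so the number does not pair every library. Close pairs treated as correlated (0.81) gave 0 of the 100 and 1, 26 and 42 of all genes. At these depths, genes with under 20 reads, such as Cftr or Pou3f4, give no order between libraries, and no alternative adds independent animals.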

Other observations

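Among entries that carry no gene name, 1 of 82 bases stood at 5806, 6258, 14326, 10339 and 10637 FPKM in replicates 1 to 5, with a mean of 9473 that lies above that of Chga. Another of 87 bases averaged 1700 FPKM, and 1 of 588 bases stood at 242 FPKM in replicate 4 against 3.50 to 21.7 in the other libraries. Replicate 4 was also the highest library for Rn45s, Rn18s, Malat1, Rn7sk and ND6. These entries were left out of the ranking and of every share, except where all entries were summed.

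By reads in place of FPKM, 19 of the first 30 genes were shared. All 11 that left were shorter than 1500 bases, among them Mt1, Mt2, Rpl41, Ppy and Gcg. All 11 that entered were longer than 2400 bases, among them the lipogenic enzyme Acly, the ubiquitin ligase Ubr4 and the calcium pump Atp2a2. The first 4 genes, Ins2, Ins1, Iapp and Chga, had the same ranks on both scales.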
